A study of Mus musculus with 2 samples.

Results

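The chemokine genes Cxcl9, Cxcl10 and Cxcl16 and the receptor genes Cxcr3 and Cxcr6 were taken by name from the 32285 genes of the deposited count files, and all 5 were found in both libraries. MC38 is a colon carcinoma line of the mouse. On day 21, immune cells were sorted out of MC38 tumours and sequenced cell by cell with 10x Genomics 3′ chemistry. There was 1 group of 2 replicate libraries, with no treated, control or normal-tissue arm, and the labels give no strain, age, genotype or treatment of the mice. File names differ between the libraries by a term that no label explains. The labels number the libraries as replicates and they were treated so, and every mean, SD and test over n = 2 rests on that. After filters, 2378 barcodes of replicate 1 and 2801 of replicate 2 were kept, with a median of 1488.5 and 1381 UMIs, and no barcode was shared by name between the libraries. A UMI (unique molecular identifier) marks 1 captured transcript, and CPM below means UMIs of a gene per 1000000 UMIs of all genes in the class.

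Classes were set by UMIs of marker genes, none of them a member. C1q macrophages (4 or more UMIs of C1qa, C1qb and C1qc, no Cd3 UMI and no other gate) numbered 896 and 484 barcodes in replicates 1 and 2. Dendritic cells numbered 91 and 45, monocytes 72 and 168, and barcodes with 2 or more UMIs of Cd3d, Cd3e and Cd3g, called T cells here, 102 and 266. Ptprc-negative barcodes numbered 576 and 894. They had no UMI of the pan-leukocyte gene Ptprc, at most 2 UMIs of 7 other leukocyte genes and, alone among the classes, at least 800 UMIs in all. A further 626 and 916 barcodes were placed in no class, written below as meeting no gate. By the gate rules this takes in barcodes with 1 Cd3 UMI. It also takes in barcodes with markers of more than 1 class, such as 4 or more C1q UMIs with monocyte or dendritic markers. Only 7 and 22 barcodes met the neutrophil gate, so neutrophils and dendritic subtypes were described from clusters computed without the 5 members.

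The libraries stood apart in several ways. Xist had 1790 UMIs in replicate 1 and 0 in the other, while Y-linked genes had 0 and 379. In C1q macrophages Xist had 836 and 0 UMIs and Y-linked genes 0 and 57, so the sex of these cells differed between the libraries. Ptprc-negative barcodes had 14 Xist and 0 Y-linked UMIs in replicate 1, and 0 and 107 in replicate 2. The myeloid lysozyme gene Lyz2 was at 6848 CPM in the C1q macrophages of replicate 1 and at 14.6 CPM in those of replicate 2. Most macrophage clusters were also held largely by 1 library, so levels are given per library and libraries were not tested against each other. The sort label of immune cells does not hold for all barcodes: Ptprc-negative barcodes made up 24.2% and 31.9% of the kept ones. Their keratin and Epcam markers summed to 0 and 1.07 CPM, and their 5 fibroblast markers to 1404 and 1260 CPM, so no epithelial name is given to them. T cell barcodes carried 18351 and 8216 CPM of a 10-gene macrophage list, against 29365 and 15308 CPM in C1q macrophages, so ligand UMIs in T cell barcodes are given below by their C1q content.

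CXCL9 and CXCL10 are secreted chemokines that interferon gamma induces in macrophages, dendritic cells and stromal cells, and CXCL10 is also induced by type I interferon and NF-kappa B. Both bind CXCR3, a G protein-coupled receptor of activated CD8 and type 1 helper T cells, NK cells and plasmacytoid dendritic cells, and draw these cells into inflamed tissue. CXCL16 is made as a membrane-anchored chemokine that also acts as a scavenger receptor, is shed by ADAM proteases, and binds CXCR6, which is carried by tissue-resident and effector T cells and NKT cells.

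In the GENCODE M21 annotation of GRCm38 the ligand genes Cxcl9 (chr5:92321347-92328079) and Cxcl10 (chr5:92346638-92348889) lie on the minus strand, 18.6 kb apart. Cxcl16 lies at chr11:70453983-70459984 on the minus strand. Cxcr3 lies at chrX:101731535-101734269 on the minus strand, and Cxcr6 at chr9:123806475-123811760 on the plus strand. All 5 are protein-coding. The 250 bases upstream of the Cxcl9 and Cxcl10 starts are shown because the 2 neighbouring genes differed in where their transcripts were found. The sequences are from RefSeq, build GRCm38.p6, written 5′ to 3′ on the minus strand (chr5:92328080-92328329 and chr5:92348890-92349139). Capitals mark matches, searched on both strands, to the interferon-stimulated response element (GAAA, 2 bases of any kind, GAAA) and to kappa B in a form of 9 bases (GGGNNTTCC) or of 10 (GGG, 3 bases of any kind, TTCC).
Cxcl9: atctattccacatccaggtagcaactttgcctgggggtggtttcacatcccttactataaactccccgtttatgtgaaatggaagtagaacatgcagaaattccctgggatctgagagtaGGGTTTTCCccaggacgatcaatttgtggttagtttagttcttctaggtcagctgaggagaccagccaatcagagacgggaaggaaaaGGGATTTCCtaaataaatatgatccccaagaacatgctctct
Cxcl10: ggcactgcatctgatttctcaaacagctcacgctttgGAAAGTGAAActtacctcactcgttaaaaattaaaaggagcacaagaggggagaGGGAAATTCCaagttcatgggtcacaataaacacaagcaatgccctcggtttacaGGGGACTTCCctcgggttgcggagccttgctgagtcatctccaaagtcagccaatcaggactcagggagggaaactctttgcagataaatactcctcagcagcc
The Cxcl10 window held 1 match to the interferon-stimulated response element (GAAAGTGAAA, 213 to 204 bases upstream of the start), and the Cxcl9 window held 0. Of all 32851 upstream windows of the same length, over 27025 genes, 2.98% held this motif. Cxcl9 had GGGTTTTCC at 130 to 122 and GGGATTTCC at 42 to 34 bases upstream. Cxcl10 had GGGAAATTCC at 159 to 150, and GGGGACTTCC at 104 to 95, which contains GGGACTTCC, a match to the shorter form. One or other kappa B form was found in 8.26% of windows. The interferon gamma-activated site TTCNNNGAA, found in 7.02% of windows, had no match in either, and the Cxcr3 and Cxcr6 windows matched none of the motifs. Matches describe these letters only.

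Outside the T cell gate, C1q macrophages had the highest Cxcl9 level of the gated classes plotted in both libraries. Cxcl9 was at 513 CPM (95% exact Poisson interval 477 to 550, 770 UMIs) in C1q macrophages of replicate 1 and at 1561 CPM (1464 to 1663, 964 UMIs) in those of replicate 2. A Cxcl9 UMI was found in 25.7% of C1q macrophage barcodes of replicate 1 and in 59.9% of those of replicate 2. The mean over the libraries was 1037 ± 741 CPM (SD, n = 2), so the 2 macrophage levels lay far apart.

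In Ptprc-negative barcodes Cxcl9 was at 14.97 CPM (29 UMIs) in replicate 1 and 20.3 CPM (57 UMIs) in replicate 2, below every leukocyte class of its library in the fit. In replicate 1, 1 barcode held 17 of the 29 UMIs, and without it the level was 6.27 CPM. Cxcl9 was 44.8-fold higher in C1q macrophages than in Ptprc-negative barcodes (log2 fold change 5.49, SE 0.38, adjusted p = 4.95e-09, edgeR's quasi-likelihood test with the library as a block and Benjamini-Hochberg adjustment over 5767 genes). Of the 4 members tested in that comparison, Cxcl9, Cxcl10, Cxcl16 and Cxcr6 all passed, where 43.1% of all genes tested passed in either direction. The Ptprc-negative gate itself keeps leukocyte RNA low. In clusters, which use no such gate, the Cxcl9 difference between macrophage-like and Ptprc-low clusters was 4.82 (SE 0.51, adjusted p = 1.34e-07) on the log2 scale, where 48.2% of all genes passed.

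Dendritic cells, the antigen-presenting cells that prime T cells, had 167 CPM of Cxcl9 in replicate 1 (35 UMIs) and 447 CPM in replicate 2 (28 UMIs). Both values were below the macrophage value of the same library. Cxcl9 was 3.24-fold lower in dendritic cells than in C1q macrophages (log2 fold change -1.70, SE 0.35, adjusted p = 0.0104, edgeR), the only 1 of 4 tested members to pass, where 2.32% of all genes did. The dendritic gate bars barcodes with 4 or more C1q UMIs. In clusters named from markers the same difference was -0.43 (adjusted p = 0.9995), without the library block it was -1.82 (adjusted p = 0.355), and with a filter of 500 genes a barcode -1.55 (adjusted p = 0.104). The call was lost under each of these. In replicate 1, 1 dendritic barcode held 14 of the 35 UMIs, and without it the level was 103 CPM. Against Ptprc-negative barcodes, Cxcl9 was 13.8-fold higher in dendritic cells (adjusted p = 1.68e-06, edgeR). It was among 2 of 4 members called there, with Cxcl16, against 23.3% of all genes.

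Monocytes, the circulating precursors of many tumour macrophages, had 191 CPM of Cxcl9 in replicate 1 and 851 CPM in replicate 2. In replicate 1, 9 of the 20 monocyte UMIs came from 1 barcode, and without it the level was 106 CPM.

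**Figure D1:**
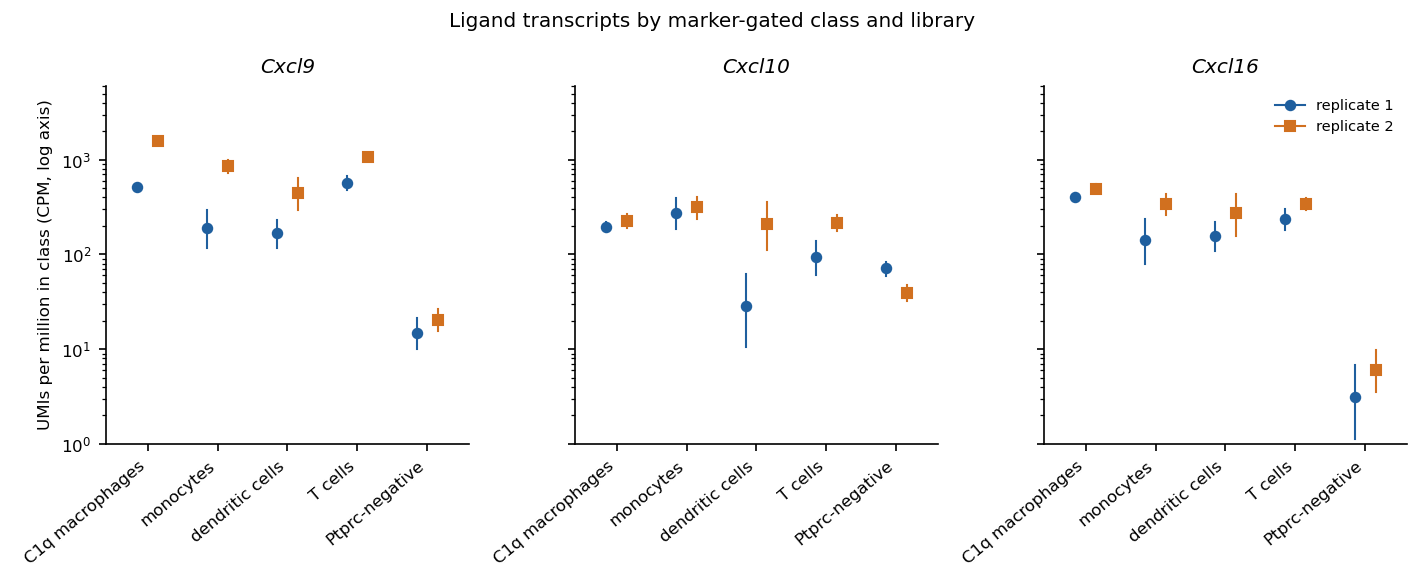
CPM (log axis) of the 3 ligand genes in 5 marker-gated classes, 1 point per library with its 95% exact Poisson interval, which covers counting error only. Cxcl9 and Cxcl16 were below 21 CPM in Ptprc-negative barcodes of both libraries, while Cxcl10 was at 71.2 and 39.2 CPM there.

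A larger share of Cxcl10 than of Cxcl9 lay in Ptprc-negative barcodes in both libraries. In C1q macrophages Cxcl10 was at 195 CPM in replicate 1 (173 to 219, 293 UMIs) and 227 CPM in replicate 2 (191 to 267, 140 UMIs). Monocytes had 276 CPM in replicate 1 (29 UMIs) and 314 CPM in replicate 2 (59 UMIs). The macrophage and monocyte intervals overlapped in replicate 1, where 1 monocyte barcode held 11 of the 29 UMIs, and in replicate 2.

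Ptprc-negative barcodes held 71.2 CPM of Cxcl10 in replicate 1 (138 UMIs) and 39.2 CPM in replicate 2 (110 UMIs), with a UMI in 10.8% and 7.72% of them. Cxcl10 was 3.14-fold higher in C1q macrophages than in Ptprc-negative barcodes (log2 fold change 1.65, SE 0.44, adjusted p = 0.00553, edgeR). One Ptprc-negative barcode of replicate 1 held 38 of the 138 UMIs, and without it the level there was 52.2 CPM. Dendritic cells had 28.7 CPM in replicate 1 (6 UMIs) and 208 CPM in replicate 2 (13 UMIs), and 1 barcode held 4 of the 6 and another 7 of the 13. The difference of dendritic cells from C1q macrophages did not pass (log2 fold change -1.29, SE 0.57, adjusted p = 0.353), nor did that from Ptprc-negative barcodes (0.36, SE 0.60, adjusted p = 0.728).

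Ptprc-negative barcodes held 19.2% of the library's Cxcl10 UMIs in replicate 1 and 13.4% in replicate 2. They held 1.98% and 1.84% of the Cxcl9 UMIs and 0.548% and 1.52% of the Cxcl16 UMIs. C1q macrophages held 52.5% and 31.1% of Cxcl9, 40.9% and 17.1% of Cxcl10, and 56.1% and 27.3% of Cxcl16. Barcodes that met no gate held 30.3% to 33.3% of each ligand in replicate 1 and 41.5% to 46.7% in replicate 2. Of all UMIs, Ptprc-negative barcodes held 35.9% and 49.8%, C1q macrophages 27.8% and 10.97%, and barcodes that met no gate 25.1% and 24.4%. Ptprc-negative barcodes thus held less of each ligand, Cxcl10 included, than of all UMIs.

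Cxcl9 per Cxcl10 UMI separated Ptprc-negative barcodes from the macrophages. The 3′ chemistry counts each transcript at its end, so this ratio does not scale with transcript length, but capture can differ between genes and the ratio is read between classes only. C1q macrophages had 2.63 Cxcl9 UMIs per Cxcl10 UMI (95% interval 2.29 to 3.02) in replicate 1 and 6.89 (5.76 to 8.28) in replicate 2. Ptprc-negative barcodes had 0.210 (0.136 to 0.315) and 0.518 (0.370 to 0.720). With the top barcodes of both genes left out, the Ptprc-negative ratios were 0.120 and 0.530. Ptprc-negative barcodes with no C1q UMI had 0.231 and 0.426.

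T cell barcodes had ratios of 6.04 and 4.97, and dendritic cells 5.83 (35 against 6 UMIs) and 2.15 (28 against 13 UMIs). Without the top barcodes of both genes dendritic cells were left with 21 against 2 UMIs and 21 against 6 UMIs. Monocytes had 0.690 (0.370 to 1.26) in replicate 1, where Cxcl10 exceeded Cxcl9, and 2.71 (2.0001 to 3.72) in replicate 2. In each of these classes the ratio lay above that of Ptprc-negative barcodes of the same library.

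Ligand UMIs were also set beside UMIs of C1qa, C1qb and C1qc, which mark macrophage RNA, in clusters, where no C1q gate acts. Macrophage-like clusters had 0.020 and 0.043 Cxcl10 UMIs per C1q UMI, and Ptprc-low clusters had 0.286 (0.241 to 0.337) and 0.595 (0.477 to 0.739). Cxcl9 per C1q UMI was 0.051 (0.048 to 0.054) and 0.207 (0.197 to 0.217) in macrophage-like clusters. In Ptprc-low clusters it was 0.091 (0.068 to 0.119) and 0.383 (0.296 to 0.493). Cxcl10 thus stood higher relative to C1q in Ptprc-low clusters of each library, by a larger ratio than Cxcl9. In replicate 1, 1 barcode held 17 of the 58 Cxcl9 UMIs of these clusters, and without it Cxcl9 per C1q UMI was 0.0644. The part of macrophage RNA in these UMIs was not tested. Within replicate 1, a Ptprc-low cluster led by Dcn and H19 (443 barcodes) had 133 Cxcl10 and 49 Cxcl9 UMIs. A second one, led by Shisal2b (261 barcodes), had 49 and 9.

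**Figure D2:**
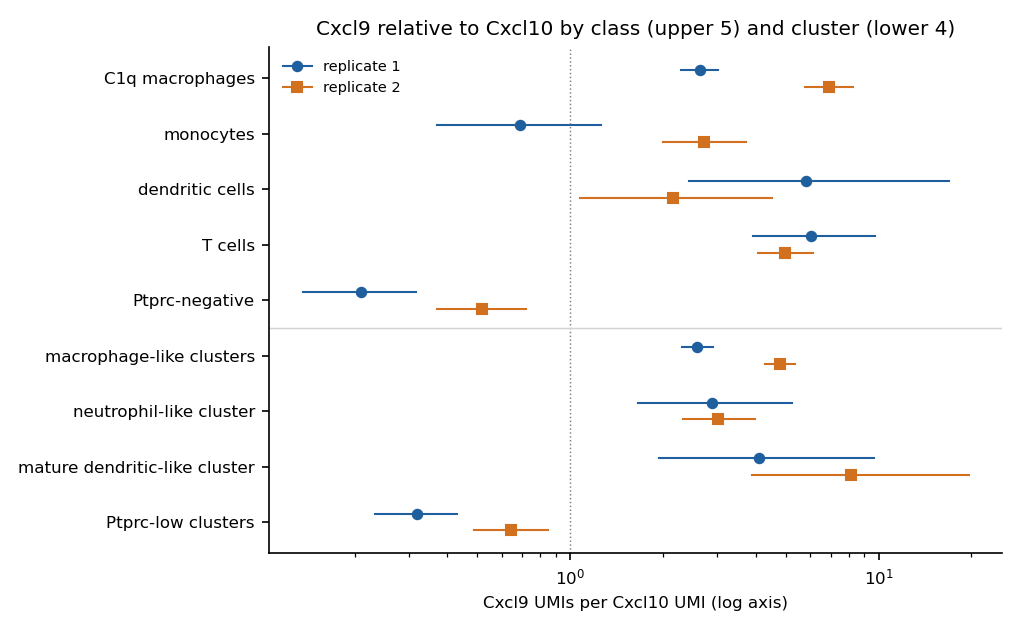
Cxcl9 UMIs per Cxcl10 UMI (log axis) in 5 marker-gated classes and 4 groups of clusters, 1 point per library with its 95% interval from the 2 counts. Ptprc-negative barcodes and Ptprc-low clusters lie below 1 in both libraries, and macrophages, neutrophil-like and mature dendritic-like clusters above 2. Without the top barcodes of both genes, the neutrophil-like value of replicate 1 goes from 2.89 to 1.64 and the mature dendritic-like one from 4.11 to 7.0.

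Cxcl16 was found in nearly the same share of macrophages in both libraries. It was at 409 CPM in C1q macrophages of replicate 1 (377 to 443, 614 UMIs) and 495 CPM in those of replicate 2 (442 to 554, 306 UMIs). A Cxcl16 UMI was found in 41.6% and 41.7% of them. In Ptprc-negative barcodes it was at 3.10 CPM (6 UMIs) and 6.06 CPM (17 UMIs). Cxcl16 was 84.4-fold higher in C1q macrophages than in Ptprc-negative barcodes (log2 fold change 6.40, SE 0.36, adjusted p = 7.89e-10, edgeR), and the difference was 5.23 (SE 0.43) between the matching clusters.

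Dendritic cells had 158 CPM of Cxcl16 in replicate 1 (33 UMIs) and 272 CPM in replicate 2 (17 UMIs), and monocytes 143 CPM and 341 CPM. Cxcl16 was 39.5-fold higher in dendritic cells than in Ptprc-negative barcodes (adjusted p = 2.62e-08, edgeR). Its difference between dendritic cells and C1q macrophages did not pass (log2 fold change -1.09, SE 0.31, adjusted p = 0.0786) and turned to 0.019 in clusters named from markers. With no filter on low counts it was -1.30 and passed (adjusted p = 0.0235), as did Cxcl10 (-1.50, adjusted p = 0.0381), where 1.59% of all genes passed.

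The 3 ligands differed in how their UMIs were packed into barcodes. In C1q macrophages, barcodes with 3 or more UMIs held 76.8% and 75.9% of the Cxcl9 UMIs in replicates 1 and 2, with at most 34 and 29 in 1 barcode. For Cxcl10 these shares were 69.3% and 52.9%, and for Cxcl16 36.6% and 28.8%, with at most 7 and 6 Cxcl16 UMIs in 1 barcode. Cxcl9 UMIs thus came mostly from macrophages with several of them, and Cxcl16 UMIs mostly from macrophages with 1 or 2. Counts within 1 barcode are not independent, so the Poisson intervals are too narrow for Cxcl9 and Cxcl10.

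Cxcl10 was found more often in macrophages that had Cxcl9. In replicate 1, 46 of 230 macrophages with Cxcl9 had Cxcl10 (20%, exact interval 15.03% to 25.8%), against 59 of 666 without it (8.86%, 6.81% to 11.3%). In replicate 2 the shares were 60 of 290 (20.7%, 16.2% to 25.8%) and 16 of 194 (8.25%, 4.79% to 13.05%). After thinning each barcode to 800 UMIs the shares were 10.1% against 5.87% and 15.6% against 7.14%, with intervals that overlapped in both libraries.

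Macrophages were also split by UMIs of Il1b, Ly6i and Clec4n, genes of inflammatory macrophages, and of Trem2, Fcrls and Stab1, genes of lipid-handling and resident-type macrophages. Cxcl9 was at 1724 CPM in the 31 barcodes of replicate 1 with UMIs of the first set only and at 396 CPM in the 495 with the second set only, a ratio of 4.36 (3.37 to 5.57). In replicate 2 it was at 2001 CPM in 227 barcodes and 572 CPM in 32, a ratio of 3.50 (2.22 to 5.85). Barcodes with both sets had 497 and 1256 CPM, and those with neither 693 and 1227 CPM. The replicate 1 value of the first set came from 9 barcodes, and after thinning 5 of 22 against 71 of 405 barcodes had a Cxcl9 UMI.

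For Cxcl10 the order differed between the libraries, and for Cxcl16 it was that of Cxcl9 but within counting error. Cxcl10 was at 87.3 against 170 CPM in replicate 1 (4 and 153 UMIs) and 262 against 151 CPM in replicate 2 (76 and 5 UMIs). Cxcl16 was at 437 against 378 CPM and 544 against 391 CPM. All 4 of these ratios had intervals that include 1. The macrophages of the 2 libraries fell largely on opposite sides of this split, and a model over 2 libraries was not fitted to it. Among clusters, Cxcl9 was at 1628 CPM in the Ly6i macrophage-like cluster of replicate 2 (755 barcodes), and at 489 CPM in the Fcrls macrophage-like cluster of replicate 1 (574 barcodes).

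**Figure D3:**
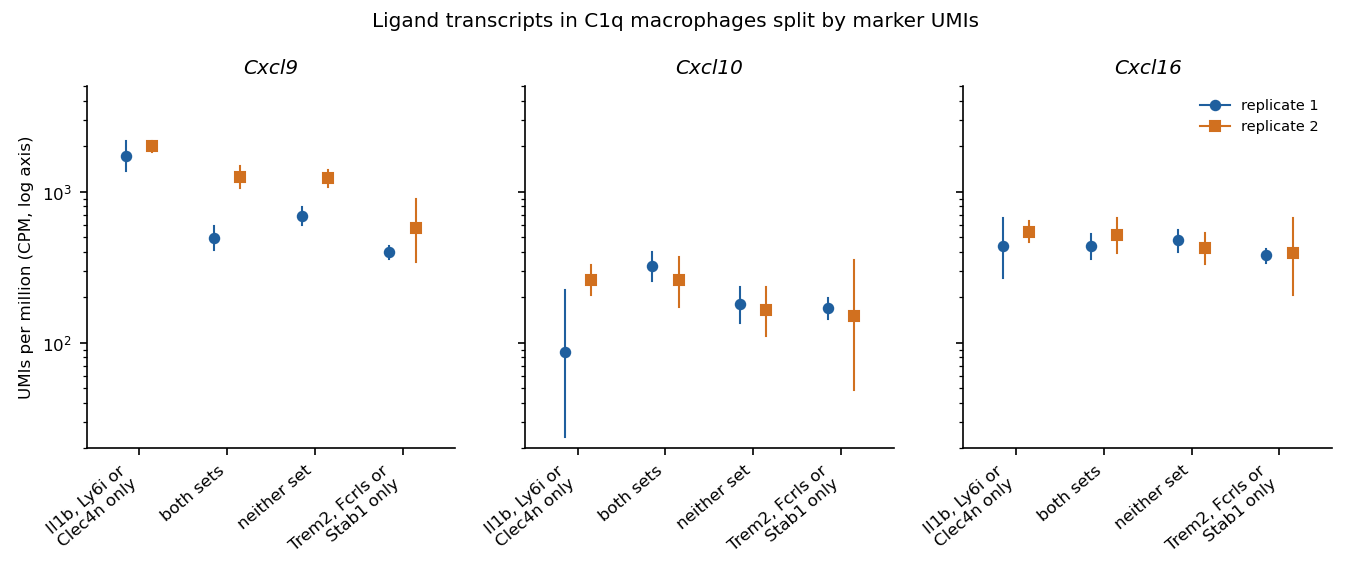
CPM (log axis) of the 3 ligand genes in C1q macrophages split by UMIs of 2 marker sets, 1 point per library with its 95% exact Poisson interval. Cxcl9 is highest with the Il1b, Ly6i and Clec4n set (1724 and 2001 CPM), while the Cxcl16 values lie between 378 and 544 CPM.

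Neutrophils were described from 1 cluster of 26 and 170 barcodes led by S100a9 and S100a8. Of these barcodes 6 and 19 met the neutrophil gate, 3 and 29 the C1q macrophage gate, and 17 and 96 no gate. Those with no gate can still carry neutrophil markers, since 4 or more C1q UMIs or a Cd3 UMI bar a barcode from the neutrophil gate. The cluster is not made up of gated neutrophils only, and its values may not stand for neutrophils. This cluster had 1119 CPM of Cxcl9 in replicate 1 (52 UMIs) and 993 CPM in replicate 2 (227 UMIs), beside 509 and 1536 CPM in the macrophage-like clusters. In replicate 1, 34 of the 52 UMIs were in 1 barcode, and without it the level was 410 CPM. Cxcl10 was at 387 and 328 CPM and Cxcl16 at 344 and 289 CPM. The 7 and 22 gated neutrophils had 532 and 682 CPM of Cxcl10 (10 and 13 UMIs, intervals 255 to 979 and 363 to 1166). These values lay above the 195 and 227 CPM of C1q macrophages, with intervals that did not overlap, from too few barcodes to be fitted. In replicate 2, 2 of the 22 barcodes held 76.9% of the Cxcl10 UMIs, with 6 UMIs in 1 barcode, and 18 had none. The intervals are too narrow for counts packed in this way. Cxcl9 in gated neutrophils was at 106 CPM (2 UMIs) and 839 CPM (16 UMIs), and Cxcl16 at 106 CPM (2 UMIs) and 262 CPM (5 UMIs). In the clusters, none of the 5 members differed from macrophage-like clusters at an adjusted p under 0.05 (edgeR, where 0.249% of 4013 genes did) or at an unadjusted p under 0.05, and DESeq2 gave the same counts of 0. The log2 difference of Cxcl9 was 0.26 (SE 0.45), that of Cxcl10 0.45 (SE 0.43) and that of Cxcl16 -0.59 (SE 0.41).

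The neutrophil-like cluster also held C1q transcripts, 331 UMIs in replicate 1 and 1203 in replicate 2. Its Cxcl9 per C1q UMI was 0.157 (0.115 to 0.211) in replicate 1, and 0.0581 without the barcode with most Cxcl9, beside 0.051 in macrophage-like clusters. It was 0.189 (0.163 to 0.218) in replicate 2, beside 0.207. The part of macrophage RNA in the ligand UMIs of these barcodes was not tested.

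Among dendritic subtypes, the mature migratory cluster (26 and 28 barcodes, led by Ccr7 and Ccl22), whose cells carry antigen to lymph nodes, had the highest Cxcl16 of the clusters plotted. Of its barcodes 6 and 7 met a dendritic gate, 7 and 1 the C1q macrophage gate, and 12 and 18 no gate. Those with no gate can still carry dendritic markers, since 4 or more C1q UMIs or a Cd3 UMI bar a barcode from the dendritic gates. Cxcl16 was at 795 CPM in replicate 1 (44 UMIs) and 766 CPM in replicate 2 (42 UMIs), against 399 and 523 CPM in macrophage-like clusters. The ratios were 1.99 (1.44 to 2.70) and 1.47 (1.05 to 2.01), intervals of counting error only. In the fit the difference did not pass (log2 0.70, SE 0.38, adjusted p = 0.881, edgeR), and 0 of the 5 members passed there, also at an unadjusted p under 0.05 and with DESeq2, against 0.523% of all genes. The 9 and 15 barcodes that met the mature dendritic gate, which bars 4 or more C1q UMIs, had 358 CPM (9 UMIs, 164 to 680) and 68.3 CPM (2 UMIs, 8.27 to 247) of Cxcl16. Both values lay below the 409 and 495 CPM of gated C1q macrophages, the opposite direction to the clusters. Cxcl16 per C1q UMI was 0.114 (0.081 to 0.156) and 0.137 (0.097 to 0.190) in this cluster, against 0.040 (0.037 to 0.043) and 0.070 (0.065 to 0.076) in macrophage-like clusters.

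The same mature dendritic cluster had 668 and 1186 CPM of Cxcl9 and 163 and 146 CPM of Cxcl10. In replicate 1 these were 426 and 56.8 CPM without the barcode with most UMIs of the gene. The type 1 dendritic-like cluster (116 and 5 barcodes), of the cells that cross-present antigen, had 381 CPM of Cxcl9, 104 of Cxcl10 and 266 of Cxcl16 in replicate 1. The most frequent gate among its gated barcodes, with dendritic subtypes counted apart, was that of C1q macrophages. Its values may thus not stand for type 1 dendritic cells. Of the 21 barcodes of replicate 1 in the type 1 gate, 17, 20 and 13 had no UMI of Cxcl9, Cxcl10 and Cxcl16. The type 2 gate, with 41 and 21 barcodes, held 36 Cxcl9, 3 Cxcl10 and 18 Cxcl16 UMIs over both libraries. In replicate 1, 14 of its Cxcl9 UMIs were in 1 barcode. The plasmacytoid-like cluster (28 and 22 barcodes) had 296 and 943 CPM of Cxcl9, 42.3 and 286 of Cxcl10, and 190 and 457 of Cxcl16. Barcodes of the plasmacytoid gate, which bars 4 or more C1q UMIs, held 1 Cxcl9, 0 Cxcl10 and 1 Cxcl16 UMI over both libraries. They were too few to be fitted, and the cluster values may not stand for plasmacytoid dendritic cells. No member passed between plasmacytoid and macrophage-like clusters by edgeR, where 0.872% of genes did, or by DESeq2, and 1, Cxcr3, had an unadjusted p under 0.05 with either tool.

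**Figure D4:**
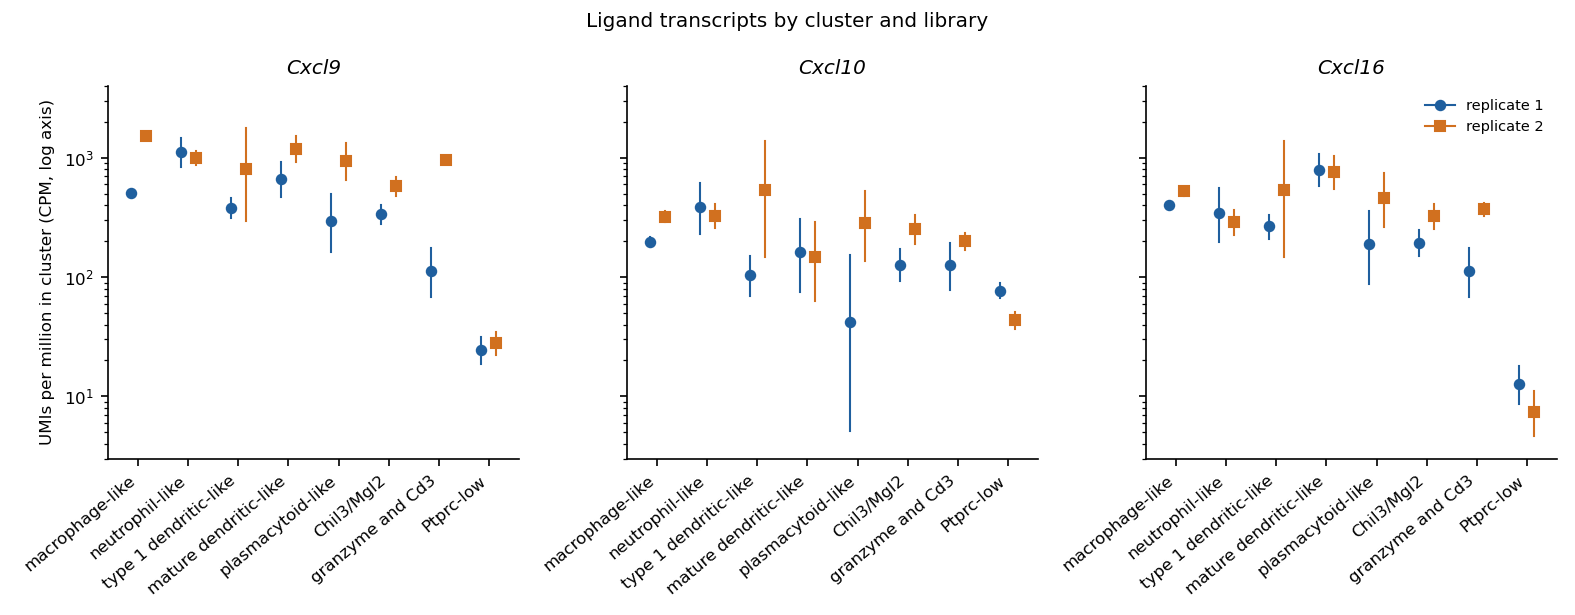
CPM (log axis) of the 3 ligand genes in clusters computed without them, 1 point per library with its 95% exact Poisson interval. Cxcl16 is highest in the mature dendritic-like cluster (795 and 766 CPM), and Ptprc-low clusters are lowest for Cxcl9 and Cxcl16.

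T cell barcodes held ligand UMIs as well. Cxcl9 was at 567 CPM in T cells of replicate 1 (145 UMIs, 45 of them in 1 barcode) and 1072 CPM in those of replicate 2 (587 UMIs). In T cells with 4 or more C1q UMIs it was at 720 and 1283 CPM, and in those with fewer at 96.0 and 638 CPM. In T cells without a C1q UMI, replicate 1 had 0 Cxcl9 UMIs in 26 barcodes (up to 94.2 CPM) and replicate 2 had 588 CPM (55 UMIs in 63 barcodes). Cxcl16 was likewise at 285 and 401 CPM with 4 or more C1q UMIs and 80.0 and 218 CPM with fewer.

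Cxcl9 in all T cells did not differ from C1q macrophages by the test (log2 -0.24, SE 0.31, adjusted p = 1). With only T cells of fewer than 4 C1q UMIs it was lower by it (-1.53, adjusted p = 0.0448), as was Cxcl16 (-1.61, adjusted p = 0.0196), where 4.15% of all genes passed. That setting compares T cells under 4 C1q UMIs with a class gated on 4 or more, so the gates favour this direction. The part of macrophage RNA or of paired cells in the ligand UMIs of T cells was not tested. Against Ptprc-negative barcodes, T cells were higher in Cxcl9 (log2 5.25), Cxcl16 (5.70) and Cxcr6 (6.79), 3 of 4 members tested against 37.5% of all genes. Cxcl10 did not pass there (1.19, adjusted p = 0.0546, edgeR).

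Of the receptors, Cxcr6 was the clearer T cell transcript. It was at 54.8 CPM in T cells of replicate 1 (29.9 to 91.9, 14 UMIs) and at 124 CPM in those of replicate 2 (96.5 to 158, 68 UMIs). A Cxcr6 UMI was found in 11 of 102 T cells in replicate 1 (10.8%) and 57 of 266 in replicate 2 (21.4%). T cells had a median of 1906 and 1610 UMIs.

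In C1q macrophages, with a median of 1227.5 and 1067 UMIs, Cxcr6 was at 5.99 CPM (9 UMIs) and 22.7 CPM (14 UMIs), and 0.781% and 2.89% had a UMI. Thinned to 800 UMIs a barcode, 2 of 94 and 22 of 241 T cells had one, against 5 of 684 and 8 of 387 C1q macrophages. Cxcr6 was 6.49-fold higher in T cells than in C1q macrophages (log2 fold change 2.70, SE 0.52, adjusted p = 0.0149, edgeR), the only 1 of 4 members called, where 0.902% of all genes were. This call was lost without the library block (2.79, adjusted p = 0.460), with only T cells of fewer than 4 C1q UMIs (2.78, adjusted p = 0.0794), with a filter of 500 genes a barcode (2.35, adjusted p = 0.0800) and after thinning (1.97, adjusted p = 0.471). The direction was the same in each.

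Cxcr6 was at a lower CPM in every other gated class of the same library, but T cells did not hold most of its UMIs. They held 35.9% and 43.3% of them, beside 4.74% and 9.72% of all UMIs. Barcodes that met no gate held 38.5% and 36.9% of the Cxcr6 UMIs, beside 25.1% and 24.4% of all UMIs. In replicate 1 the Fcrls macrophage-like cluster held 22 of the 39 Cxcr6 UMIs. Ptprc-negative barcodes had 1 UMI in replicate 1 and 2 in replicate 2, and T cells were far higher (log2 6.79, SE 0.69, adjusted p = 9.07e-07, edgeR). Dendritic cells had 0 Cxcr6 UMIs in both libraries, which allows up to 14.3 and 47.9 CPM by a floor of 3 counts in each library. The T cell values were 3.82-fold and 2.59-fold above that floor, with the counting error of T cells not included. Monocytes had 0 UMIs in replicate 1 and 74.5 CPM (14 UMIs) in replicate 2. T cells without a C1q UMI still had 76.6 CPM (3 UMIs) and 139 CPM (13 UMIs), with intervals that overlap those of the T cells with 4 or more C1q UMIs, at 57.0 and 111 CPM.

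Cxcr6 was not confined to T cells with CD8 transcripts. It was at 73.6 and 127 CPM in T cells with a Cd8a or Cd8b1 UMI (25 and 116 barcodes) and 45.9 and 121 CPM in those without one (77 and 150 barcodes), intervals that overlap in each library. At this depth the absence of a CD8 UMI does not make a barcode CD8-negative. In clusters, the Cd3 and Cd8a cluster, nearly all of replicate 2 (8 and 380 barcodes), had 123 CPM of Cxcr6 there. The cluster led by granzyme genes, proteases of cytotoxic cells (93 and 64 barcodes), had 39.8 and 199 CPM.

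Cxcr3, the receptor for CXCL9 and CXCL10, was near the limit of detection. The libraries held 36 and 33 Cxcr3 UMIs in all. T cells had 31.3 CPM in replicate 1 (8 UMIs in 5 of 102 barcodes) and 10.96 CPM in replicate 2 (6 UMIs in 6 of 266), with intervals of 13.5 to 61.7 and 4.02 to 23.9. C1q macrophages had 5.33 CPM (8 UMIs) and 3.24 CPM (2 UMIs), dendritic cells 3 and 0 UMIs, and monocytes 0 in both.

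Cxcr3 did not pass the filter on low counts in these classes, so its test comes from the fit with no such filter. There it was 5.13-fold higher in T cells than in Ptprc-negative barcodes (log2 fold change 2.36, SE 0.81, adjusted p = 0.0241, edgeR, where 17.6% of genes passed). In clusters named by gate the difference was 2.18 and did not pass (adjusted p = 0.123). The difference from C1q macrophages did not pass (1.92, SE 0.86, adjusted p = 1). The libraries disagreed in size. Ptprc-negative barcodes had 0 Cxcr3 UMIs in replicate 1, and the T cell value was 20.2-fold above the floor of 3 counts, with the counting error of T cells not included. In replicate 2 Ptprc-negative barcodes had 15 UMIs (5.35 CPM, in 12 of 894 barcodes). That is 45.5% of that library's Cxcr3 UMIs, beside 49.8% of all its UMIs.

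The Cxcr3 UMIs of T cells fell mostly on barcodes without a CD8 UMI, 8 of 8 in replicate 1 and 5 of 6 in replicate 2. That is 45.9 and 17.4 CPM without a CD8 UMI, and 0 UMIs (up to 45.3 CPM) and 3.86 CPM with one, intervals that overlap in both libraries. Of T cells with a Cxcr6 UMI, 0 of 11 in replicate 1 and 2 of 57 in replicate 2 also had a Cxcr3 UMI. The highest Cxcr3 of the classes plotted was in the plasmacytoid-like cluster, 84.5 CPM (4 UMIs, 23.0 to 216) and 57.2 CPM (2 UMIs, 6.92 to 207). The difference of this cluster from macrophage-like clusters did not pass (log2 3.16, SE 1.34, adjusted p = 0.430, edgeR).

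**Figure D5:**
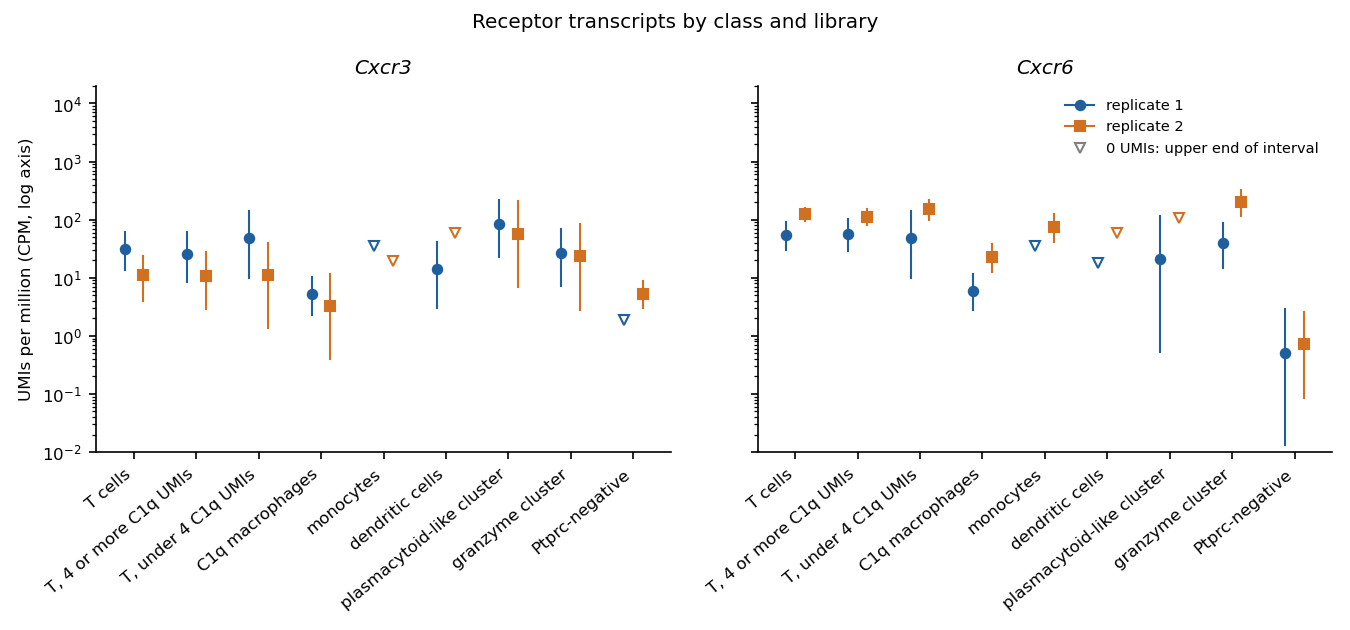
CPM (log axis) of the 2 receptor genes in gated classes, 2 T cell splits and 2 clusters, 1 point per library with its 95% exact Poisson interval, and an open triangle at the upper end where no UMI was counted. Cxcr6 stands at 54.8 and 124 CPM in T cells and at or below 0.713 CPM in Ptprc-negative barcodes, while the Cxcr3 intervals of most classes overlap.

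Genes around this axis were read from 5 lists. Of the interferon gamma pathway list, 27 of 29 genes were tested. Between C1q macrophages and Ptprc-negative barcodes 11 were higher, none lower and 16 did not pass, with a median log2 difference of 0.73 against -0.07 for all genes. The share of this list that passed was near the 43.1% of all genes in either direction, against which the other lists are read as well. The largest were Ciita, the master regulator of MHC class II (log2 5.25), the myeloid factor Irf8 (4.68) and Cd274, the checkpoint ligand PD-L1 (2.89). Irf1, an interferon-induced transcription factor, did not pass (0.67, SE 0.39).

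Of the type I interferon list 10 of 13 tested genes were higher in C1q macrophages than in Ptprc-negative barcodes and none lower, led by Ifi204 (log2 4.92), Oasl1 (4.12) and Irf7 (3.95), with a list median of 2.65. Of the ligand processing and scavenging list 3 of 5 were higher. These were the scavenger receptor Cd36 (6.26), Dpp4, the protease that trims CXCR3 ligands (2.79), and Adam17, a sheddase (1.31). Of the receptor signalling list 10 of 13 were higher, led by Pik3cg (6.39), Dock2 (6.23) and Rac2 (6.20), which link chemokine receptors to cell movement. Of the other trafficking receptors 9 of 9 tested were higher, led by Cxcr4 (6.02), Cx3cr1 (5.96) and Ccr2 (5.82). These lists hold many leukocyte genes, Rac2 is a gate gene of the Ptprc-negative class, and the gate keeps leukocyte RNA low there.

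Between dendritic cells and C1q macrophages, where 2.32% of all genes passed, no interferon gamma pathway gene passed out of 27, while 5 had an unadjusted p under 0.05 (edgeR), and 1 type I gene, Ifi205, was higher in dendritic cells (log2 2.43). Of 9 trafficking receptors 3 passed. Among them Ccr7, the receptor that guides cells to lymph nodes, was higher in dendritic cells (log2 4.08), and Cx3cr1, a macrophage and monocyte receptor, was lower (-3.81). Ccr7 is a gate gene of the mature dendritic class, and the macrophage gate bars barcodes that met a dendritic gate. The gates thus favour this direction for Ccr7. Between T cells and C1q macrophages, where 0.902% of all genes passed, 1 of the 27 interferon gamma pathway genes passed, Ifng itself, the inducer of both CXCR3 ligands, higher in T cells by 3.91 (SE 0.65, adjusted p = 0.00309). No gene of the other 4 lists passed between T cells and macrophages, and 4 of them had an unadjusted p under 0.05.

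Over the 10 class sums of the gated fit (5 classes in 2 libraries), genes with the most similar pattern were ranked by Pearson's r of log2(CPM + 10) among 8796 genes. These sums share libraries and classes, so the values describe likeness only. For Cxcl9 they were Lair1, an inhibitory receptor of leukocytes (r = 0.99), Gpr65, Fyb, Ctsc and Sirpa. For Cxcl16 they were Ptpn6, a phosphatase of blood cells (0.99), Gngt2, Fcer1g, which is also a gate gene, Hcls1 and Psap. For Cxcl10 they were Rnpep (0.97), Cd14, a co-receptor for lipopolysaccharide, Rsad2, an interferon-induced antiviral enzyme, Hps5 and Cxcl2.

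Cxcr6 was most like Trac, the T cell receptor alpha constant gene (0.95), Ccl1, Icos, a costimulatory receptor of T cells, Gm19585 and Skap1. For Cxcr3 the highest value was 0.89 (Ctdp1), followed by Kdm2b, Col4a3bp, Dolpp1 and Cxxc1. Cxcl9 was closer to Cxcl16 (0.97) than to its genomic neighbour Cxcl10 (0.69).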

How the data were processed

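The authors deposited UMI counts for each gene and barcode as whole numbers, per the file headers, and the counts were used as they are. Their processing notes list Cell Ranger 6.0.1, Seurat 4.0.1 and the mm10 build, per the labels, with no role given. The libraries total 5688000 and 5862342 UMIs. Barcodes with at least 300 genes and under 10% mitochondrial UMIs were kept, less Scrublet doublets (10 and 36, or 0.419% and 1.27%). UMIs were summed per class and library and tested with edgeR 4.0.16 (R 4.3.3, quasi-likelihood test, TMM, filterByExpr, Benjamini-Hochberg adjustment, threshold 0.05) on 10 sums of 5 classes. The library was a block, since all classes come out of the same 2 libraries, and 4 residual degrees of freedom remained. p-values measure only how class differences varied between these 2 libraries, which the labels do not call separate animals. Scripts were tested on simulated data.

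Some gates left fewer than 20 barcodes a library, so the planned comparisons between dendritic subtypes were not run. Neutrophil-like, mature and plasmacytoid dendritic-like clusters were set against macrophage-like clusters instead, which was chosen after seeing the data (scanpy 1.11.5, Leiden resolution 1, 2000 variable genes without the members, 6 residual degrees of freedom). Clusters were named from markers among their leading genes.

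The members, markers, gates and gene lists were chosen with earlier results of these data known. Named are the members in every class, up to 3 genes of largest difference per list, direction and comparison among those that passed, and the 5 genes most like each member. Irf1 was chosen after its values were seen. Some genes that this rule names are not reported here. Alternatives were DESeq2 1.42.0, RLE scaling, no filter, no block, other gates and cell filters, thinning, clusters, and leaving out a replicate. Intervals cover counting error only.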

Additional observations from a re-analysis of the deposited data

How the results depend on the processing

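Cxcl9, Cxcl10 and Cxcl16 kept their higher level in C1q macrophages than in Ptprc-negative barcodes, and passed, under every alternative that gives a test. With 1 replicate left out there is a value and no test: the log2 difference ranged from 4.90 to 6.17 for Cxcl9, from 1.27 to 2.44 for Cxcl10 and from 6.23 to 6.798 for Cxcl16. Cxcr6 in T cells against C1q macrophages no longer passed with no replicate block (2.79), with T cells under 4 C1q UMIs (2.78), with at least 500 genes (2.35) or thinned (1.97), and ranged from 2.42 to 2.98 without a replicate. The cause was not tested for these or for the values that follow.

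Genes called numbered 2484 between C1q macrophages and Ptprc-negative barcodes, 1524 with T cells under 4 C1q UMIs, which leaves fewer genes tested, and 1222 thinned. Between dendritic cells and C1q macrophages there were 134, and 259 with no filter, 17 with no replicate block, 255 with only these classes, 89 thinned, and 23 and 34 in clusters named by gate and from markers. Between dendritic cells and Ptprc-negative barcodes there were 1342, and 757 with no replicate block, 811 with only these classes and 712 thinned. Between T cells and C1q macrophages there were 52, and 86 with no filter, 6 with no replicate block, 416 with only these classes, 134 with T cells under 4 C1q UMIs, 30 thinned and 84 in clusters named from markers. Between T cells and Ptprc-negative barcodes there were 2164, and 964 with T cells under 4 C1q UMIs and 1051 thinned. Between neutrophil-like and macrophage-like clusters there were 10, and 18 with no filter, 5 with no replicate block and 25 with only these classes.

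Among the alternatives that give a test, signs reversed in 10 values, 8 of them of differences that passed in neither setting. Between dendritic cells and C1q macrophages, Cxcl16 was 0.191 and 0.0191 in clusters named by gate and from markers. Between dendritic cells, which held 0 Cxcr6 UMIs, and Ptprc-negative barcodes, Cxcr6 was 1.56 with DESeq2, 2.40 with a C1q gate of 8 UMIs, and 3.43 and 3.14 in the clusters, where it passed. Between T cells and C1q macrophages, Cxcl9 was 0.0302 with a Cd3 gate of 3 UMIs and Cxcl10 was 0.0507 thinned. Against macrophage-like clusters, neutrophil-like Cxcr3 was -0.0206 with no filter and mature dendritic-like Cxcl9 was 0.0102 with DESeq2. Changes of sign with 1 replicate left out are not in this count. The libraries did point opposite ways for Cxcl9 against macrophage-like clusters. Its CPM ratio was 2.20 in replicate 1 and 0.647 in replicate 2 for the neutrophil-like cluster, and 1.31 and 0.772 for the mature dendritic-like one. A Ptprc-negative gate that also asks for keratin UMIs was not run, since 0 and 3 barcodes met it. With 36 and 33 Cxcr3 UMIs in all, depth limits the Cxcr3 values.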

Other observations

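Barcodes that met no gate held more Cxcl9 than Ptprc-negative barcodes, at 344 CPM in replicate 1 (465 UMIs) and 937 CPM in replicate 2 (1289 UMIs), and 269 and 381 CPM of Cxcl16. Barcodes with a single Cd3 UMI, left out of the T cell class, had 27.7 and 63.6 CPM of Cxcr6 (9 and 31 UMIs), between the values of C1q macrophages and T cells in each library. A fibroblast-like cluster led by Col1a1 had 40 barcodes in replicate 2, with 13 Cxcl9 and 3 Cxcl10 UMIs, and 2 barcodes in replicate 1. The cluster led by Chil3 and Mgl2 (248 and 227 barcodes), which mixes monocyte and type 2 dendritic markers, had 336 and 577 CPM of Cxcl9, 127 and 253 of Cxcl10, and 194 and 325 of Cxcl16. It held 0 Cxcr3 UMIs in both libraries.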
